A study of Homo sapiens with 16 samples.

Results

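This report describes 10 genes of transforming growth factor beta (TGF-beta) and activin signalling, namely FSTL3, INHBA, TGFB1, TGFB2, TGFBR1, TGFBR2, SMAD3, SMAD7, BMP2 and ID1, among 58721 genes in the count table. They were taken by gene name, and the group was chosen by the measured siFOXA1.1 change in SCaBER, where FSTL3 was among the largest increases. That change is therefore no finding here, and everything computed from it is given as a description without a test. The study transfected 2 bladder cancer cell lines, RT112 and SCaBER, with 10 nM of siRNA and measured RNA by 3′ mRNA sequencing. Each line received siControl.1 or siControl.2, the non-targeting controls, or siFOXA1.1 or siFOXA1.2 against FOXA1, a forkhead transcription factor of luminal urothelium. Each of these siRNAs was sequenced as 2 replicates per line, which gives 16 libraries. RT112 was grown in RPMI and SCaBER in DMEM, both with 10% FBS, so medium and line cannot be told apart. All libraries of a line come from 1 established line, and nothing in the sources used here says whether replicates were separate cultures, so p-values measure the spread between these libraries only.

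TGF-beta and activin ligands are secreted as dimers that bind a type II receptor, which then phosphorylates a type I receptor. The type I receptor passes the signal to SMAD2 and SMAD3, which enter the nucleus with SMAD4, whereas bone morphogenetic proteins (BMPs) signal through SMAD1, SMAD5 and SMAD9. Secreted antagonists such as follistatin and FSTL3 hold activin away from its receptors, and SMAD7 is an inhibitory SMAD that the pathway itself induces. In epithelia the pathway is known for restraining proliferation and for inducing matrix genes.

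Library totals were 6622473 to 7604581 counts in RT112 and 4528513 to 6914951 in SCaBER, so 3 counts, taken here as the floor of detection, correspond to 0.394 to 0.453 and 0.434 to 0.662 CPM (counts scaled to 1000000 per library), a limit that covers counting error only. The summed level of 10 luminal markers was 1365 to 2561 CPM in RT112 and 102 to 190 CPM in SCaBER, and that of 10 basal markers 306 to 657 and 2386 to 4101 CPM. In RT112 the luminal sum was 2245 to 2561 CPM in the control libraries and 1365 to 1683 CPM in the siFOXA1 libraries. Of 8 fibroblast markers COL3A1 and DCN were at 0 in every library, whereas LUM was at 48.9 to 137 CPM in RT112 and 4.86 to 28.2 CPM in SCaBER, and COL1A1 at 7.50 to 56.5 and 1.54 to 20.4 CPM. Of 7 blood and endothelial markers PTPRC and CD3E were at 0 in every library, PECAM1 reached 11.2 CPM and LYZ 3.22 CPM in RT112, and the sum was 1.92 to 11.2 CPM in RT112 and 0 to 2.87 CPM in SCaBER. Mitochondrial genes took 25.7 to 28.2% of the counts in the RT112 siFOXA1.1 libraries and 18.0 to 21.2% in the other RT112 libraries, and the part of this difference in the changes below was not tested. FOXA1 itself was at 18.2 to 35.0 CPM in the RT112 control libraries, 1.32 and 3.24 CPM after siFOXA1.1, and 9.18 and 16.0 CPM after siFOXA1.2. It fell after siFOXA1.1 (log2 fold change −3.44, standard error (SE) 0.47, edgeR adjusted p = 2.19e-05), and the siFOXA1.2 value of −1.10 (SE 0.39) did not pass the threshold of 0.05 (adjusted p = 0.205). In SCaBER FOXA1 had 3 to 15 counts per control library and 0 to 6 per siFOXA1 library, too few to be tested.

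The promoter sequences of the 4 genes that the results turn on are shown first, as the 250 bases before the RefSeq start (GRCh38.p14), read 5′ to 3′ on the strand of the gene. Of the 10 genes, 9 have a window in the RefSeq table, and TGFBR2 has 2, of which the first by position is printed. The INHBA window precedes an annotated start that lies inside the gene. Capitals mark matches, on either strand, to the forkhead motif TGTTTAC, the SMAD box CAGAC, the GC-rich SMAD element GGCGCC or the TATA box TATAAA, the last chosen after the sequences were seen.
FSTL3 (chr19:676142-676391, plus strand): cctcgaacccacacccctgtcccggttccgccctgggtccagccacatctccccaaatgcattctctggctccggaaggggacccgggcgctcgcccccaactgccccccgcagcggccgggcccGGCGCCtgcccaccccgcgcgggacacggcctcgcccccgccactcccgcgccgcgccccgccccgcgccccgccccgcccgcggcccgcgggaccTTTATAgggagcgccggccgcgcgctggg
INHBA (chr7:41703091-41703340, minus strand): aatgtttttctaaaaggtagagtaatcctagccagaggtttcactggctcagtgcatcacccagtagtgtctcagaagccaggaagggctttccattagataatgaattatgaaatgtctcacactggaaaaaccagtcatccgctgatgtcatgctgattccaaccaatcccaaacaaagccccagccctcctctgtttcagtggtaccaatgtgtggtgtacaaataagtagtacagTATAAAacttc
TGFBR2 (chr3:30606106-30606355, plus strand): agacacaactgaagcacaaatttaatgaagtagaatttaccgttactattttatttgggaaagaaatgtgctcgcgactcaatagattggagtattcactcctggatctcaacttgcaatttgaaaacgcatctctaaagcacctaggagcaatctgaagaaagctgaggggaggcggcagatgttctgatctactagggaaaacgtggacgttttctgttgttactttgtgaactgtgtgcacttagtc
ID1 (chr20:31605039-31605288, plus strand): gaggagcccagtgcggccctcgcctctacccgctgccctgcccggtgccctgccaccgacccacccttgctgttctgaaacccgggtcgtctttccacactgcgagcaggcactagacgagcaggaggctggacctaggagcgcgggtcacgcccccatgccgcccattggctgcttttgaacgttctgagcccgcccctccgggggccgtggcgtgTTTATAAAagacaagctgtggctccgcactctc

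The FSTL3 and ID1 windows were rich in G and C, at 80% and 66% of bases, and those of INHBA and TGFBR2 were not, at 42.8% and 40.8%. The FSTL3 window holds 1 match to GGCGCC, which 16.4% of 35116 windows of this length hold. TATA box letters stand close before the start in FSTL3, INHBA and ID1, where 10.7% of all windows hold them anywhere. None of the 4 windows holds the forkhead letters, found in 2.98% of all windows, or the SMAD box letters, found in 38% of them, and no motif overlaps another.

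FSTL3, which encodes a secreted antagonist of activin and myostatin, was lower than in the controls after both siRNAs against FOXA1 in RT112, and higher after siFOXA1.1 in SCaBER. The gene lies at chr19:676392-683385 (GRCh38.p14). In RT112 its level was 23.7 and 21.9 CPM with siControl.1, 41.4 and 22.0 CPM with siControl.2, 12.3 and 10.3 CPM with siFOXA1.1, and 9.76 and 6.42 CPM with siFOXA1.2. All 4 siFOXA1 libraries of RT112 were below all 4 control libraries. In bulk RNA fewer cells of a type and less RNA per cell cannot be told apart. In SCaBER it was 5.99 and 16.4 CPM with siControl.1, 1.30 and 2.43 CPM with siControl.2, 29.2 and 33.1 CPM with siFOXA1.1, and 2.01 and 2.22 CPM with siFOXA1.2. The siFOXA1.1 libraries were the highest of this line, and the siFOXA1.2 libraries lay within the range of siControl.2.

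In RT112 FSTL3 fell after each siRNA against FOXA1, with a log2 fold change against the mean of both controls of −1.12 after siFOXA1.1 (SE 0.36, edgeR adjusted p = 0.0235) and −1.71 after siFOXA1.2 (SE 0.38, adjusted p = 0.0210). Both comparisons use the same control libraries. The siRNAs differed from each other by 0.60 (SE 0.41, 95% interval −0.21 to 1.41, adjusted p = 0.312), so a difference between them was not shown. The siFOXA1.1 call was lost without siControl.1 replicate 1 (adjusted p = 0.0574), siControl.2 replicate 1 (adjusted p = 0.122) or siFOXA1.1 replicate 2 (adjusted p = 0.0930), and against siControl.1 alone (adjusted p = 0.102). The siFOXA1.2 call was lost in 5 of 8 fits without 1 library, namely without siControl.1 replicate 1 (adjusted p = 0.0667), siControl.1 replicate 2 (0.0633), siControl.2 replicate 1 (0.122), siFOXA1.2 replicate 1 (0.0982) or siFOXA1.2 replicate 2 (0.286). Against siControl.1 alone the value was −1.51 (adjusted p = 0.0576). The siFOXA1.2 call was also lost in limma on log2(TPM + 1).

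In SCaBER the siFOXA1.1 change of FSTL3, which chose the group, was 2.81 (SE 0.48), rank 66 among the increases of 11902 genes, between SDK1 at 2.81 and CD274 at 2.81. Its size rested on the control used, at 1.52 (SE 0.56) against siControl.1 alone and 4.10 (SE 0.66) against siControl.2 alone, and between pairs of libraries with the same replicate number it ranged from 1.00 to 4.04 on the scale of log2(CPM + 0.5). After siFOXA1.2 the change from the same controls was −1.07 (SE 0.57, adjusted p = 0.998). The control siRNAs of SCaBER differed in FSTL3 by 2.58 (SE 0.64), higher with siControl.1, which did not pass edgeR's threshold (adjusted p = 0.227) and passed DESeq2's (adjusted p = 0.0296).

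**Figure D1:**
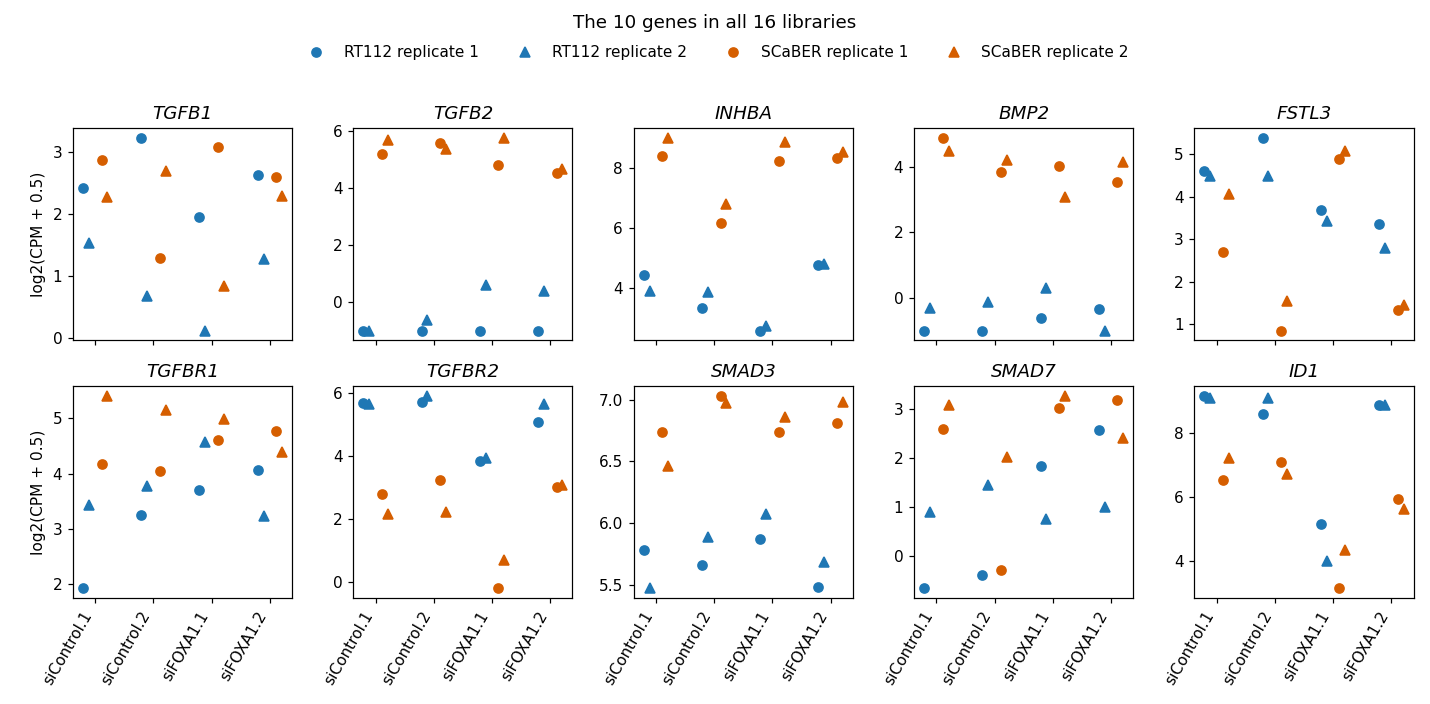
Level of each of the 10 genes in each library, as log2(CPM + 0.5) on the vertical axis, against the siRNA on the horizontal axis, with 1 point per library, blue for RT112 and orange for SCaBER, circles for replicate 1 and triangles for replicate 2. FSTL3 of SCaBER is highest with siFOXA1.1 (29.2 and 33.1 CPM), ID1 is lowest with siFOXA1.1 in both lines, and TGFB2 and BMP2 are near 0 in RT112.

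INHBA encodes the beta A subunit, a pair of which forms activin A, the ligand that FSTL3 binds. It lies at chr7:41685114-41705406, where the annotation also places the antisense gene INHBA-AS1. In RT112 its level was 20.8 and 14.2 CPM with siControl.1, 9.58 and 13.9 CPM with siControl.2, 5.42 and 6.04 CPM with siFOXA1.1, and 26.5 and 27.3 CPM with siFOXA1.2. The siFOXA1.1 libraries were below every control library and the siFOXA1.2 libraries above every one. INHBA fell by 1.18 after siFOXA1.1 (SE 0.38, edgeR adjusted p = 0.0219), its siFOXA1.2 value of 0.93 (SE 0.33) did not pass (adjusted p = 0.208), and the siRNAs differed from each other by −2.11 (SE 0.42, adjusted p = 0.00105). The siFOXA1.1 call was lost without siControl.1 replicate 1 (adjusted p = 0.0749), siControl.2 replicate 2 (adjusted p = 0.0633) or siFOXA1.1 replicate 1 (adjusted p = 0.0844), and against siControl.2 alone (adjusted p = 0.141).

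In SCaBER INHBA separated the control siRNAs. Its level was 339 and 515 CPM with siControl.1, 70.4 and 110 CPM with siControl.2, 300 and 471 CPM with siFOXA1.1, and 321.6 and 372.6 CPM with siFOXA1.2. The siControl.2 libraries were the low ones, and the siFOXA1 libraries overlapped siControl.1. INHBA was 2.23 higher on the log2 scale with siControl.1 than with siControl.2 (SE 0.28, edgeR adjusted p = 0.00658), the only gene of the wider pathway list called there, where 0.0672% of all genes tested were called. That call was lost without siControl.1 replicate 2 (adjusted p = 0.0526), siControl.2 replicate 1 (adjusted p = 0.432) or siControl.2 replicate 2 (adjusted p = 0.113). Changes from both controls were 1.00 (SE 0.22) after siFOXA1.1 and 0.85 (SE 0.22) after siFOXA1.2, the latter with an adjusted p of 0.459. Against siControl.1 alone they were −0.11 (SE 0.26) and −0.27 (SE 0.26), and against siControl.2 alone 2.12 (SE 0.28) and 1.96 (SE 0.27, adjusted p = 0.0160), so their direction turned with the control.

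**Figure D2:**
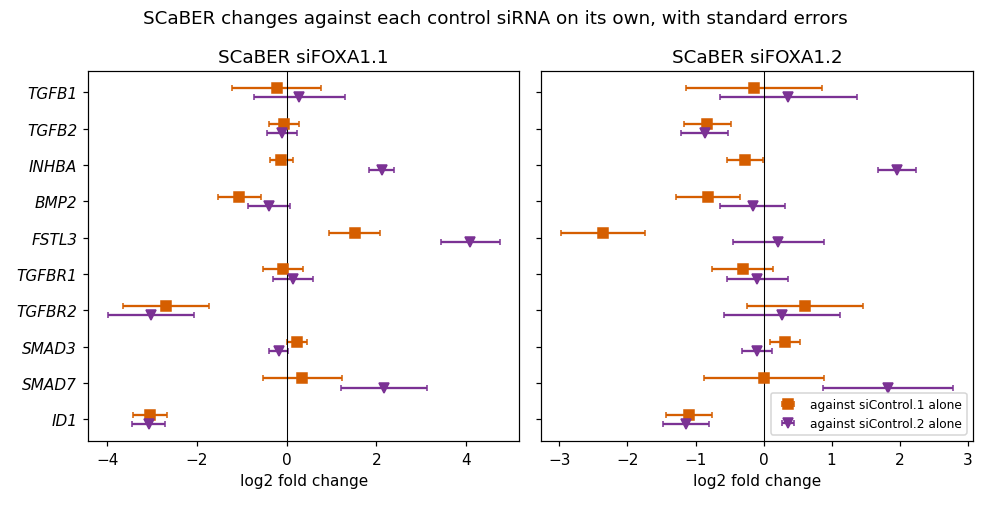
Log2 fold change of the 10 genes in SCaBER (horizontal axis) after siFOXA1.1 (left) and siFOXA1.2 (right), against siControl.1 alone (squares) or siControl.2 alone (triangles), with bars for 1 standard error from edgeR. For INHBA the siFOXA1.1 values are −0.11 and 2.12 and for FSTL3 1.52 and 4.10, whereas for ID1 the squares and triangles coincide within their errors.

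Of the other ligands, TGFB2 and BMP2 were at or near 0 in RT112. TGFB1, the TGF-beta ligand of most tissues, was at 0.589 to 8.92 CPM in RT112 and 1.30 to 7.95 CPM in SCaBER, and its SE in the siRNA comparisons with both controls was 0.86 to 1.03 on the log2 scale. No test called it. At 4 to 67 counts per library a change smaller than that error would not have been detectable, and a larger one could also be missed. TGFB2, a ligand of the same family, had 0 to 7 counts per library in RT112 and 23.0 to 54.2 CPM in SCaBER. BMP2, a ligand of the BMP branch, had 0 to 5 counts per library in RT112 and 7.95 to 29.1 CPM in SCaBER. Neither passed the low-count filter in RT112, so 8 of the 10 genes were tested there and all 10 in SCaBER. In SCaBER TGFB2 was at 36.4, 51, 47.5 and 41.3 CPM in the control libraries and 23.0 and 25.4 CPM after siFOXA1.2, with no overlap, and its change of −0.85 (SE 0.31) did not pass (adjusted p = 0.750). After siFOXA1.1 it was at 27.6 and 54.2 CPM, 1 library on each side of the controls. BMP2 in SCaBER was at 29.1, 21.8, 14.0 and 18.1 CPM in the controls, 15.9 and 7.95 CPM with siFOXA1.1 and 11.1 and 17.3 CPM with siFOXA1.2, and its siFOXA1.2 value of −0.49 (SE 0.41) did not pass (adjusted p = 0.999).

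TGFBR2, the type II receptor that binds TGF-beta, fell after siFOXA1.1 in RT112. It lies at chr3:30606356-30694142. Its level in RT112 was 51.7 and 50.6 CPM with siControl.1, 52.8 and 60.2 CPM with siControl.2, 13.9 and 15.0 CPM with siFOXA1.1, and 33.8 and 50.5 CPM with siFOXA1.2. The siFOXA1.1 libraries were far below all the others. The change was −1.76 (SE 0.25, edgeR adjusted p = 3.19e-05) after siFOXA1.1, −0.33 (SE 0.23, adjusted p = 0.641) after siFOXA1.2, and −1.43 (SE 0.27, adjusted p = 0.000739) between the siRNAs. In SCaBER TGFBR2 was at 4.05 to 8.92 CPM in the control libraries, 7.71 and 8.08 CPM with siFOXA1.2, and 0.379 and 1.16 CPM with siFOXA1.1, the latter from 2 and 8 counts. The siFOXA1.1 value of −2.86 (SE 0.90) is a description and became −1.54 in limma on log2(TPM + 1), and that of siFOXA1.2 was 0.44 (SE 0.72, adjusted p = 0.999).

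TGFBR1, the type I receptor that partners TGFBR2, was at 3.29 to 13.2 CPM in the RT112 control libraries and at 12.6 and 23.3 CPM after siFOXA1.1. Its value of 1.19 (SE 0.46) did not pass (edgeR adjusted p = 0.0561), and it passed without siControl.1 replicate 2 (adjusted p = 0.0152), without siFOXA1.1 replicate 1 (adjusted p = 0.0232), and without the low-count filter (adjusted p = 0.0339). In SCaBER TGFBR1 was at 16.1 to 42.1 CPM in the controls and 20.4 to 31.4 CPM in the siFOXA1 libraries, inside the range of the controls. SMAD3, which carries the TGF-beta and activin signal, was at 43.8 to 66.7 CPM in RT112 and 87.6 to 131 CPM in SCaBER. Its siRNA changes from both controls lay between −0.10 and 0.41 with SEs of 0.19 to 0.20. SMAD7 was at 0.132 to 5.39 CPM in RT112 and 0.325 to 9.11 CPM in SCaBER, and with SEs of 0.76 to 1.22 none of its changes from both controls passed.

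ID1, an inhibitor of basic helix-loop-helix factors and a target of BMP signalling, had the largest fall of the 10 genes in RT112 after siFOXA1.1. It lies at chr20:31605289-31606510. Its level in RT112 was 575 and 552 CPM with siControl.1, 388 and 549 CPM with siControl.2, 35.4 and 15.6 CPM with siFOXA1.1, and 470 and 466 CPM with siFOXA1.2. In SCaBER it was 91.4 and 147 CPM with siControl.1, 137 and 104 CPM with siControl.2, 8.33 and 19.7 CPM with siFOXA1.1, and 60.2 and 48.6 CPM with siFOXA1.2. The siFOXA1.1 libraries were the lowest in each line, and in SCaBER the siFOXA1.2 libraries were also below all controls.

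The RT112 change of ID1 was −4.20 (SE 0.24, edgeR adjusted p = 5.02e-10) after siFOXA1.1, −0.11 (SE 0.18, adjusted p = 0.897) after siFOXA1.2, and −4.09 (SE 0.25, adjusted p = 2.80e-09) between the siRNAs. The siFOXA1.1 calls of ID1 and TGFBR2 held in each of the 8 fits without 1 library and against each control alone. In SCaBER the siFOXA1.1 value of −3.06 (SE 0.35) is a description, and the siFOXA1.2 value of −1.12 (SE 0.31) did not pass (adjusted p = 0.483) although it passed in DESeq2 (adjusted p = 0.0374). The siFOXA1.2 change differed between the lines by 1.01 (SE 0.39), which did not pass (adjusted p = 0.708) and passed without the low-count filter (adjusted p = 0.0326).

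**Figure D3:**
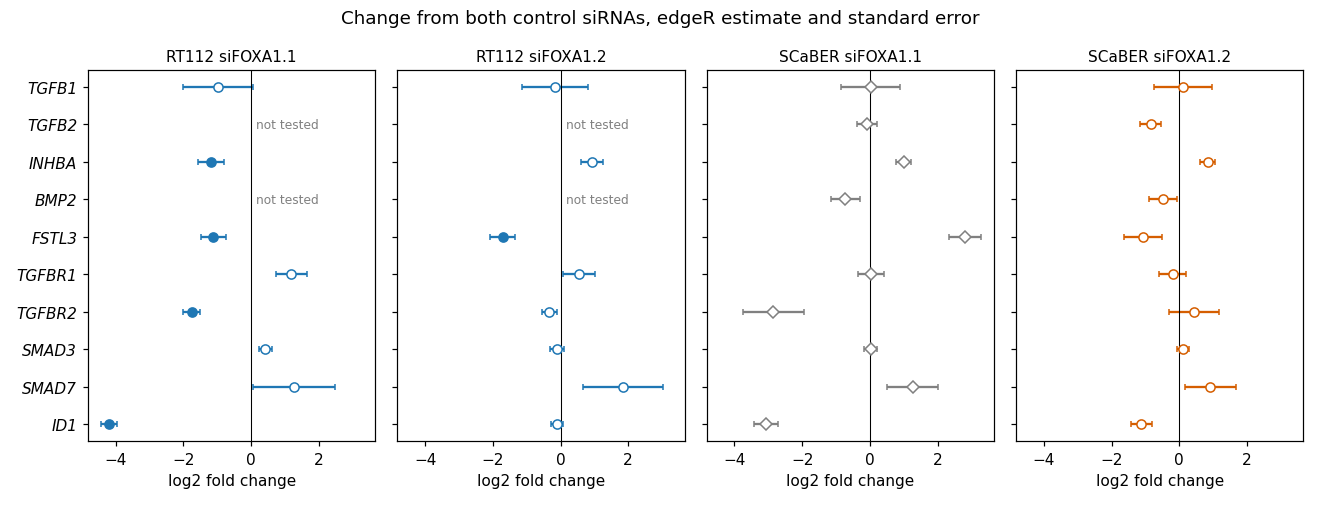
Log2 fold change from both control siRNAs (horizontal axis) with 1 standard error from edgeR, for each gene and each of 4 comparisons. Filled circles passed an adjusted p of 0.05, open circles did not, and grey diamonds mark SCaBER siFOXA1.1, which chose the group and was not tested. In RT112 after siFOXA1.1 the filled points are ID1 (−4.20), TGFBR2 (−1.76), INHBA (−1.18) and FSTL3 (−1.12).

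Replicate numbers mark experiment batches, and the called RT112 changes had the same sign in both, on the scale of log2(CPM + 0.5). After siFOXA1.1 they were −1.31 and −1.05 in batches 1 and 2 for FSTL3, −1.31 and −1.15 for INHBA, −1.87 and −1.84 for TGFBR2, and −3.72 and −5.10 for ID1. After siFOXA1.2 FSTL3 was at −1.63 and −1.70. These are the same libraries that gave the calls, so the shared sign is a description and no separate support.

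Over the group, 4 of 8 genes tested fell in RT112 after siFOXA1.1 and none rose, where 17% of all 11986 genes tested fell and 15.6% rose (32.6% called). The median over these 8 was −1.05, beside −0.01 over all genes. After siFOXA1.2 in RT112 FSTL3 was the 1 gene of 8 called, and it was lower, against 2.04% of all genes called and 1% lower. Between the siRNAs ID1, INHBA and TGFBR2 were called of 8 tested and all were lower with siFOXA1.1, against 28.1% of all genes called and 15.1% lower. Between the control siRNAs of RT112 edgeR called 0 of 8, against 2.36%. At an unadjusted p under 0.05 there were 0, beside 1577 of all 11986 genes tested, and DESeq2 and limma called 0. In SCaBER after siFOXA1.1 FSTL3 stood at 2.81 (SE 0.48), INHBA at 1.00 (SE 0.22) and ID1 at −3.06 (SE 0.35). Of all genes 9.26% passed there, 4.47% higher and 4.79% lower. The values of the 10 genes are descriptions without a test, because this contrast chose the group. The same holds for SCaBER siFOXA1.1 against siFOXA1.2, where FSTL3 stood at 3.88 (SE 0.64) and ID1 at −1.94 (SE 0.36). Of all genes 4.85% passed in that comparison. After siFOXA1.2 in SCaBER edgeR called 0 of 10, against 0.042% of all genes. An unadjusted p under 0.05 was found for 3 (INHBA, ID1 and TGFB2), beside 634 of all 11902 genes tested. DESeq2 called ID1 and INHBA, for which no share over all genes is given here.

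The study pooled both siRNAs against FOXA1 and set them against both controls. Done so in RT112, edgeR called 0 of 8 genes, against 0.108% of all genes. An unadjusted p under 0.05 was found for 2, beside 1454 of all 11986 genes tested. FSTL3 was at −1.40 (SE 0.33, edgeR adjusted p = 0.210, DESeq2 adjusted p = 0.0129) and ID1 at −1.04 (SE 0.78, edgeR adjusted p = 0.603). In SCaBER the pooled values hold the libraries that chose the group and are descriptions, at 1.37 (SE 0.87) for FSTL3 and −1.79 (SE 0.43) for ID1. Of all genes 0.0084% passed there.

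A wider list of 101 genes of the pathway showed how its parts moved with the siRNAs in RT112. Of these, 63 were tested in RT112 and 26 (41.3%) passed after siFOXA1.1, 14 higher and 12 lower, beside 32.6% of all genes called, 15.6% higher and 17% lower, which is also the background for the counts by role given next. The median change was −0.08 over the 63 beside −0.01 over all genes. The split was 13 higher and 15 lower when libraries were scaled by their totals alone, which put the median of all genes at −0.15, and 10 higher and 16 lower in limma on TPM, which put it at −0.29.

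Among 10 ligands tested in RT112, 5 passed after siFOXA1.1. INHBB, the activin beta B subunit, was at 12.2 to 25.2 CPM in the controls and rose to 45.5 and 40.5 CPM (log2 fold change 1.50, SE 0.29, edgeR adjusted p = 0.000601), while INHBA fell. GDF15, a stress-induced member of the family, rose by 2.84 (SE 0.47), BMP7 rose by 1.30 (SE 0.42), and GDF11 fell by 3.36 (SE 0.80). The BMP7 call was lost against siControl.2 alone (adjusted p = 0.314) and in 4 of 8 fits without 1 library, with adjusted p values up to 0.0798 (without siFOXA1.1 replicate 1). Among 4 extracellular inhibitors FSTL3 and NBL1 fell, NBL1 by 0.43 (SE 0.14), a call lost against siControl.2 alone (adjusted p = 0.123) and in 3 of 8 fits without 1 library, with adjusted p values up to 0.358 (without siFOXA1.1 replicate 2). FST, the follistatin gene, had 0 to 10 counts per library in RT112 and was not tested there.

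Of 9 latency and activation genes, 4 rose and 1 fell. The integrin subunits ITGAV, ITGB6 and ITGB8, the first of which pairs with either of the others to release TGF-beta from its latent complex, rose by 1.40 (SE 0.21), 1.34 (SE 0.15) and 1.92 (SE 0.44). THBS1, thrombospondin 1, rose by 1.83 (SE 0.19), from 32.5 and 53.8 CPM with siControl.1 and 123 and 156 CPM with siControl.2 to 215 and 286 CPM, and the controls themselves differed by −1.63 (SE 0.24, edgeR adjusted p = 0.000736). FURIN, a protease that cleaves the ligand precursors, fell by 0.57 (SE 0.16). Against siControl.2 alone ITGB8 (adjusted p = 0.0909) and FURIN (adjusted p = 0.144) did not pass, and FURIN did not without siFOXA1.1 replicate 1 (adjusted p = 0.0821). Of 9 receptors TGFBR2 and the co-receptor TGFBR3 fell, the latter by 1.29 (SE 0.28).

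Among intracellular members SMAD5, which carries BMP signals, fell by 0.59 (SE 0.15), and 4 of 11 regulators rose. These were the ubiquitin ligases SMURF1 at 1.51 (SE 0.36) and SMURF2 at 0.73 (SE 0.27), the deubiquitinase USP15 at 0.79 (SE 0.23) and the SMAD repressor SKIL at 0.75 (SE 0.13). Among these, SMAD5 was lost without siFOXA1.1 replicate 1 (adjusted p = 0.0689), and USP15 against siControl.1 alone (adjusted p = 0.121), without siControl.2 replicate 1 (0.0544) and without siFOXA1.1 replicate 1 (0.0850). SMURF2 was lost in 6 of 8 fits without 1 library, with adjusted p values up to 0.591 (without siFOXA1.1 replicate 2), with the replicate number as a block (adjusted p = 0.0582), against siControl.2 alone (adjusted p = 0.231), with library totals alone (0.109), with the filter set on single siRNA groups (0.0538) and in limma on TPM (0.407). Neither inhibitory SMAD passed, SMAD6 having a value of −1.15 (SE 0.56).

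Of 13 targets tested, 3 rose and 4 fell. The genes ID1, ID2 and ID3 all fell, ID1 by 4.20, ID2 by 2.73 (SE 0.33, edgeR adjusted p = 6.01e-06) and ID3 by 0.48 (SE 0.17, adjusted p = 0.0435), the last lost with DESeq2 size factors (adjusted p = 0.0518), in DESeq2 (0.209), against siControl.2 alone (0.138), and without siControl.1 replicate 2 (0.134), siControl.2 replicate 2 (0.172) or siFOXA1.1 replicate 1 (0.314). HEY1, a repressor that BMP and Notch signals induce, fell by 3.23 (SE 0.30). The matrix genes CCN1, COL1A1 and TGFBI rose by 3.32 (SE 0.29), 2.80 (SE 0.28) and 1.54 (SE 0.15). PMEPA1, which TGF-beta induces, had a value of 0.18 (SE 0.11, adjusted p = 0.254). COL1A1, also a fibroblast marker, rose to 56.5 and 53.9 CPM. The 8 fibroblast markers, COL1A1 included, summed to 85.2 to 137 CPM in the RT112 controls and 103 to 146 CPM in the siFOXA1 libraries. Of these, LUM was at 48.9 to 137 CPM over the RT112 libraries, COL1A2 and FAP reached 0.442 and 0.604 CPM, and COL3A1, DCN, PDGFRA and PDGFRB were at 0. Their part in the COL1A1 change was not tested.

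**Figure D4:**
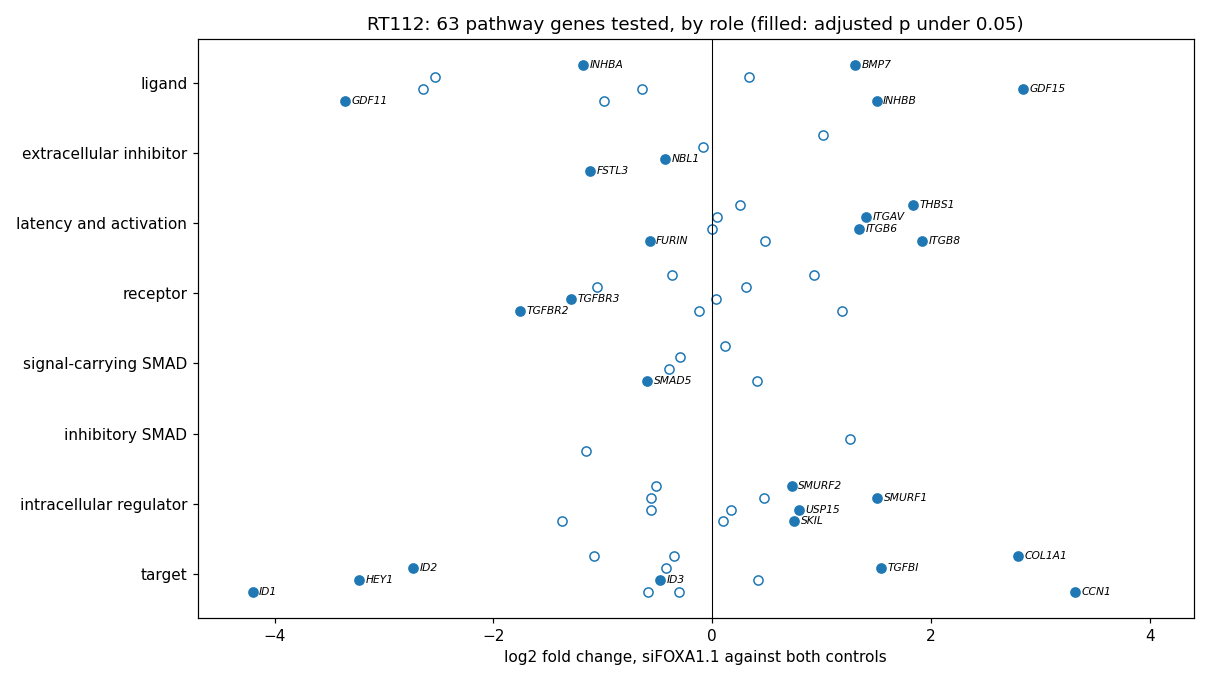
Log2 fold change in RT112 after siFOXA1.1 against both controls (horizontal axis) for the 63 tested genes of the pathway list, in rows by role, with filled and named points for the 26 that passed an adjusted p of 0.05 in edgeR. Points within a row are shifted vertically only to separate them. Filled points lie on both sides of 0 among ligands and targets, from ID1 at −4.20 to CCN1 at 3.32.

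After siFOXA1.2 in RT112 3 of the 63 genes (4.76%) passed, beside 2.04% of all genes. Besides FSTL3, the activin receptor gene ACVR2B rose by 1.22 (SE 0.30, edgeR adjusted p = 0.0420) and FN1, fibronectin, rose by 0.84 (SE 0.16, adjusted p = 0.00643). Neither passed against siControl.2 alone (adjusted p = 0.470 and 0.394). ACVR2B was lost in 6 of 8 fits without 1 library, with adjusted p values up to 0.452 (without siFOXA1.2 replicate 1), and FN1 without siFOXA1.2 replicate 1 (0.123) or replicate 2 (0.0827). FN1 differed between the controls by −0.81 (SE 0.19, adjusted p = 0.0265), lost without siControl.1 replicate 2 (0.371), siControl.2 replicate 1 (0.175) or siControl.2 replicate 2 (0.155). The siRNAs differed from each other in 21 of the 63 genes (33.3%), near the 28.1% of all genes, 9 higher and 12 lower with siFOXA1.1, GDF15 by 4.31 (SE 0.66) and HEY1 by −3.99 (SE 0.32) among them.

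In SCaBER 61 genes of the list were tested. After siFOXA1.1, described only, 7 were higher and 1 lower past the threshold (13.1%, beside 9.26% of all genes), and limma on TPM gave 1 and 2. These counts include the 10 genes. Outside them 5 of 51 were past the threshold (9.8%), all higher. FN1 was at 111 and 101 CPM with siFOXA1.1 beside 26.3 to 61.6 CPM in the controls (log2 fold change 1.41, SE 0.26). Also past the threshold were BHLHE40 at 1.38 (SE 0.41), ITGB6 at 1.23 (SE 0.30) and SMURF2 at 0.88 (SE 0.25). After siFOXA1.2 edgeR called 0 of the 61, beside 0.042% of all genes. An unadjusted p under 0.05 was found for 9, beside 634 of all 11902 genes tested. DESeq2 called 2, for which no share over all genes is given here. FST was at 152 to 335 CPM in the SCaBER controls, 193 and 169 CPM with siFOXA1.1, and 376 and 297 CPM with siFOXA1.2. TGFBI, which rose in RT112, was at 335 to 554 CPM in the SCaBER controls and at 310 and 371 CPM with siFOXA1.1 (−0.36, SE 0.16).

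Between the lines, 8 of the 10 genes differed at baseline in the siControl libraries, 3 higher and 5 lower in RT112, against 43.4% of all genes called, 21.2% higher and 22.2% lower. TGFBR2 was higher in RT112 by 3.18 (SE 0.28, edgeR adjusted p = 3.68e-07) and ID1 by 2.12 (SE 0.18, adjusted p = 2.42e-07). FSTL3 was higher there by 2.06 (SE 0.56), a description without a test. The SCaBER control libraries also entered the change that chose the group, and the count of 8 includes FSTL3. INHBA was lower in RT112, at −4.12 (SE 0.52, adjusted p = 1.46e-05), as were TGFBR1 at −1.62 (SE 0.41, adjusted p = 0.00535) and SMAD3 at −1.11 (SE 0.17, adjusted p = 9.44e-05). TGFB2 had 1026 counts over the SCaBER control libraries and 1 over those of RT112, a ratio of 1280 per count sequenced (exact 95% interval 230 to 50800). BMP2 had 483 and 5 counts, a ratio of 121 (exact 95% interval 51.5 to 374). Both intervals treat counts as independent molecules and cover counting error only, not the spread between libraries. SMAD7 at −2.10 (SE 0.96, adjusted p = 0.0925) and TGFB1 at −0.12 (SE 0.67, adjusted p = 0.902) did not pass.

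At baseline 46 of 69 genes of the wider list (66.7%, beside 43.4% of all genes) differed between the lines, 25 higher and 21 lower in RT112. The limma fit on TPM, which put the median of all genes at −0.32, gave 16 higher and 23 lower. With the replicate number as a block edgeR called 33. Antagonists of activin stood opposite, FST at 0 to 1.39 CPM in the RT112 controls beside 152 to 335 CPM in SCaBER, and FSTL3 at 21.9 to 41.4 CPM beside 1.30 to 16.4 CPM. TGFBR3 and BMP3 were at 0 in all SCaBER libraries and at 40.5 to 50.4 and 12.8 to 24.2 CPM in the RT112 controls. The cell cycle inhibitor gene CDKN2B was at 0 in all RT112 libraries and at 13.2 to 16.1 CPM in the SCaBER controls. The siFOXA1.2 change differed between the lines in 0 of 72 pathway genes tested with edgeR, where 0.0438% of all genes were called. An unadjusted p under 0.05 was found for 7, beside 829 of all 13701 genes tested. For siFOXA1.1 the line difference, given without a test beside 3.14% of all genes past the threshold, was −3.94 (SE 0.63) for FSTL3, −2.20 (SE 0.36) for INHBA, −1.17 (SE 0.42) for ID1 and 1.05 (SE 0.61) for TGFBR2.

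The genes whose profile was most like that of FSTL3 over the 16 libraries, after centring within each line, were PCGF5 (r = 0.900), CHIC2 (r = 0.887), OAS1 (r = 0.876), B4GALT5 (r = 0.869) and MOB3C (r = 0.844), among 10685 genes. In the same order the correlations were 0.686, 0.659, 0.516, 0.801 and 0.658 within RT112. Within SCaBER they were 0.946, 0.935, 0.944, 0.910 and 0.901. Within the group ID1 and TGFBR2 ran together (r = 0.824) and FSTL3 and ID1 did not (r = −0.20). The points share libraries and depth and include the SCaBER siFOXA1.1 libraries that chose the group, so these values are descriptions.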

How the data were processed

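The sources name 3′ mRNA libraries (Lexogen), TrimGalore 0.6.2 with a minimum quality of 20 and length of 10, STAR 2.6.1a and GENCODE release 29. The labels name genome build hg38, and the methods hg19. The authors deposited raw counts per gene and TPM values, made from the same reads. TPM as deposited divides by gene length, which 3′ reads do not follow, so levels were compared within genes only.

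Counts were tested with edgeR 4.0.16 in R 4.3.3 (quasi-likelihood F test, TMM scaling, filterByExpr, Benjamini-Hochberg over all genes tested, threshold 0.05), with 1 fit per line and both controls averaged. CPM is counts per 1000000 of the library total. Alternatives were DESeq2 1.42.0, limma 3.58.1 on log2(TPM + 1), other scalings and filters, each control alone, each library left out and a replicate block. The scripts were tested on simulated data. The study pooled both siRNAs per target and used DESeq2. Here edgeR per siRNA came first.

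The 10 genes and the pathway and marker lists were chosen with earlier results of these data known. The text names the 10 genes, FOXA1, 9 readouts or regulators, in each comparison the 5 pathway genes with the largest change among those called with a mean of at least 20 counts, and the 5 genes most like FSTL3. Other pathway genes that passed were named after their values were seen. Replicate numbers are a batch in the labels and could pair the samples, and the main fits used no such block. The correlation of same-numbered deviations was −0.02 to 0.02 over 6 pairs in RT112 and 0.02 to 0.22 in SCaBER, with 1 of the SCaBER pairs over 0.1. Overlapping or antisense genes lie at INHBA, TGFB2, TGFBR1, TGFBR2 and SMAD3. Some genes of the lists are not reported here.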

Additional observations from a re-analysis of the deposited data

Results flagged for a closer look

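FSTL3 changed by −1.12 (log2) in RT112 and by 2.81 in SCaBER after siFOXA1.1. In RT112 each siFOXA1.1 library was below all controls. The SCaBER value chose the group and is a description, so the difference between the lines was not tested.

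Single libraries stood far from the other 3 of their kind in 3 of 38 sets of 4 libraries examined, where chance gives about 1 in 20, so 3 is close to what chance alone gives. FSTL3 was at 41.4 CPM in RT112 siControl.2 replicate 1, beside 21.9 to 23.7 CPM in the other control libraries. ID1 was at 388 CPM in the same library, beside 549 to 575 CPM in the others. TGFB2 was at 54.2 CPM in SCaBER siFOXA1.1 replicate 2, beside 23.0 to 27.6 CPM in the other siFOXA1 libraries of that line.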

How the results depend on the processing

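Calls of ID1 and TGFBR2 in RT112 after siFOXA1.1 held in all alternatives run, and those of FSTL3 and INHBA did not, as given above. The number of pathway genes called moved by over 1.5 times in these cases, and the cause was not tested. Without the low-count filter it was 2 for the siFOXA1.2 line difference (0 as reported), 3 for pooled RT112 (0), 5 for RT112 siFOXA1.2 (3), 5 for the SCaBER controls (1), 2 for pooled SCaBER (0), 10 for SCaBER siFOXA1.1 against siFOXA1.2 (6) and 3 for SCaBER siFOXA1.2 (0). By DESeq2 it was 4 for pooled RT112, 4 for the SCaBER controls, 1 for pooled SCaBER and 2 for SCaBER siFOXA1.2. By limma on TPM it was 1 for the RT112 controls (4), 0 for RT112 siFOXA1.2, 0 for the SCaBER controls, 2 for SCaBER siFOXA1.1 against siFOXA1.2 and 3 for SCaBER siFOXA1.1 (8). Against siControl.1 alone it was 3 for SCaBER siFOXA1.1, and against siControl.2 alone 1 for RT112 siFOXA1.2 and 1 for SCaBER siFOXA1.2. Leaving out single libraries gave 1 to 6 for the RT112 controls, 0 to 4 for RT112 siFOXA1.2, 0 to 3 for the SCaBER controls, 0 to 11 for SCaBER siFOXA1.1 against siFOXA1.2 and 4 to 10 for SCaBER siFOXA1.1.

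With the replicate block, which follows the pairing by batch, the count was 1 for the siFOXA1.2 line difference and 2 for the SCaBER controls, TGFB1 turned to 0.65 at baseline and to 0.10 between the RT112 controls, SMURF2 lost its RT112 siFOXA1.1 call, and no call among the 10 genes changed.

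Signs of values that had not passed a test turned elsewhere. By limma on TPM INHBA was at −0.072 for the siFOXA1.2 line difference and, in pooled RT112, INHBA at −0.12 and SMAD3 at −0.017. For INHBA in SCaBER after siFOXA1.1, a description only, the value against siControl.1 alone was −0.11. Against siControl.1 alone the other values were 0.046 for TGFB1 in RT112, and −0.27 for INHBA and −0.14 for TGFB1 in SCaBER, all after siFOXA1.2. Against siControl.2 alone they were 0.052 for ID1 in RT112, and 0.22 for FSTL3 and −0.090 for SMAD3 in SCaBER, all after siFOXA1.2.

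Leaving out single libraries also turned signs of weak values. For the siFOXA1.2 line difference BMP2 ran from −2.80 to 2.02, INHBA from −0.092 to 0.23, SMAD7 from −0.30 to 2.10, TGFB1 from −1.25 to 0.81 and TGFB2 from −0.22 to 5.36. TGFB1 ran from −0.74 to 0.20 at baseline. Between the RT112 controls FSTL3 ran from −0.81 to 0.13, SMAD3 from −0.23 to 0.055, SMAD7 from −3.02 to 1.46, TGFB1 from −1.24 to 1.77 and TGFBR2 from −0.16 to 0.0049. In pooled RT112 INHBA ran from −0.16 to 0.48 and TGFB1 from −1.06 to 0.076. In RT112 siFOXA1.1 against siFOXA1.2 SMAD7 ran from −1.40 to 0.59 and TGFB1 from −2.52 to 0.14. TGFB1 ran from −2.68 to 0.091 in RT112 after siFOXA1.1 and from −1.14 to 0.93 after siFOXA1.2, where ID1 ran from −0.23 to 0.014. Between the SCaBER controls ID1 ran from −0.40 to 0.25, TGFB1 from −0.094 to 1.50, TGFB2 from −0.28 to 0.17, TGFBR1 from −0.52 to 0.88 and TGFBR2 from −0.77 to 0.33. After siFOXA1.2 in SCaBER TGFB1 ran from −0.18 to 0.61 and TGFBR1 from −0.44 to 0.17.

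Levels under or near the floor of 3 counts bound no change, as for TGFB2 (0 to 7 counts) and BMP2 (0 to 5 counts) in RT112. At 2 libraries per siRNA a change within its SE was not detectable, and changes well over their SE could fail too. In SCaBER after siFOXA1.2 INHBA at 0.85 (SE 0.22, edgeR adjusted p = 0.459) and ID1 at −1.12 (SE 0.31, adjusted p = 0.483) did not pass.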

Other observations

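PMEPA1, a target that TGF-beta induces and whose product dampens the signal, differed between the control siRNAs of RT112, and its SCaBER value had the opposite sign and did not pass. In RT112 it was at 253 and 233 CPM with siControl.1 and 432 and 355 CPM with siControl.2 (log2 difference −0.64, SE 0.13, edgeR adjusted p = 0.0137), and that call was lost without siControl.1 replicate 1 (adjusted p = 0.0846), siControl.1 replicate 2 (0.197) or siControl.2 replicate 1 (0.228). In SCaBER it was at 149 and 179 CPM with siControl.1 and 41.7 and 71.1 CPM with siControl.2 (1.53, SE 0.28, adjusted p = 0.0580). LTBP1, which holds latent TGF-beta in the matrix, differed between the RT112 controls by −1.41 (SE 0.36, adjusted p = 0.0479), a call lost in 5 of 8 fits without 1 library, with adjusted p values up to 0.346 (without siControl.2 replicate 1).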
